A study of Mus musculus with 12 samples.

Results

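Rectal tissue of mice that carried both tamoxifen-inducible Cre drivers, Lgr5creER and CDX2creER, together with floxed Apc (Lgr5-Cdx2-Apc, n = 2) was compared with control rectum (n = 3). The comparison covers every gene with at least 1 FPKM (fragments per length of transcript, scaled to the total of the library) in at least 2 of these 5 libraries, which gave 16317 genes of the 27785 in the table. The controls are titled WT, and their genotype field names CDX2creER and APC flox with WT in brackets, so what the controls share with the other group is not fully given. Tamoxifen, the drug that activates the creER fusion, was given by intraperitoneal injection on 5 days at 25 mg/kg according to the protocol on every sample, but the treatment field of the controls is empty. Rectum with a single driver and floxed Apc, Lgr5-Apc (n = 4) and Cdx2-Apc (n = 3), entered the fit and serves as a second reference. The labels give no age, sex or strain, and they do not say whether the samples came from separate animals, so p-values measure only the spread between these samples.

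Apc is a scaffold of the destruction complex, which marks beta-catenin for degradation and so holds Wnt signalling down. Lgr5 marks stem cells of the intestinal crypt, and Cdx2 is a transcription factor of the intestinal epithelium. The rectum ends at the anal canal, where columnar gut epithelium over smooth muscle meets squamous epithelium, skin with hair follicles and glands, and the striated sphincter muscle.

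In the data, many genes of skin, hair follicle, skin immune cells and striated muscle were higher in the 2 Lgr5-Cdx2-Apc libraries than in control, and many genes of smooth muscle and columnar gut epithelium were lower. Of the 16317 genes, 1826 were higher, 1479 lower and 13012 not called (limma, Benjamini-Hochberg adjusted p below 0.05). Over all 17360 genes tested, 10.5% were called higher and 8.55% lower, 19.1% in all. The log2 difference was above 2 for 582 of the genes called higher and below -2 for 448 of those called lower, and its median over all genes tested was 0.07. Of the genes called higher, 107 were listed at 0 in all 3 controls, and 863 had a control mean under 1 FPKM. Of the 16317 genes, 939 passed the entry filter through the Lgr5-Cdx2-Apc libraries alone and 765 through the controls alone. A gene that reached 1 FPKM only where it is high had to differ, so counts over lists near 0 in control are descriptions. In bulk tissue, fewer cells of a type and less RNA per cell cannot be told apart.

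**Figure D1:**
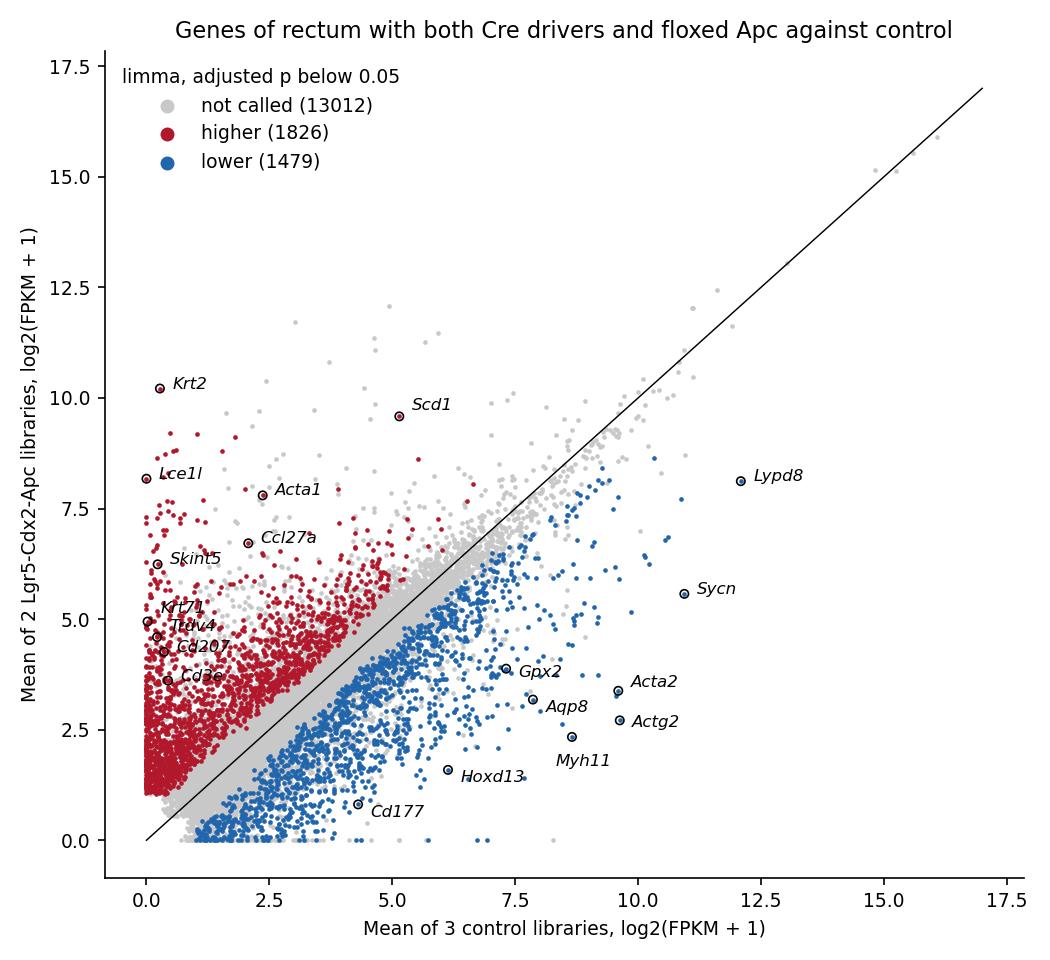
Each point is 1 of the 16317 genes, by its mean log2(FPKM + 1) in 3 control libraries (x axis) and in 2 Lgr5-Cdx2-Apc libraries (y axis), with 1826 genes called higher in red and 1479 called lower in blue. Krt2, Lce1l and Skint5 stand near 0 in control and high in the group with both drivers, and Actg2, Acta2 and Myh11 lie far below the line of equal levels.

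Total FPKM ran from 451297 to 728462 over the 12 libraries, and depth in reads is unknown. Libraries of 1 group differed in the levels of tissue markers. Control replicate 1 held squamous epithelium genes that the other controls had at low levels, such as the basal keratins Krt5 at 926, 17.6 and 12.4 FPKM and Krt14 at 881, 14.1 and 8.96 FPKM in control replicates 1, 2 and 3. The 2 Lgr5-Cdx2-Apc libraries differed by more than 1 on the log2 scale for 1307 genes, against 559 to 1805 for pairs of controls. Among the genes called lower, 290 stood more than 1 log2 unit higher in replicate 1 than in replicate 2, and 2 the other way. The columnar epithelium list, 18 genes such as Krt8 and Vil1, had a level (mean log2(FPKM + 1)) of 6.11 and 3.47 in the 2 libraries and 7.46, 7.54 and 8.0 in control.

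The labels do not give the sex, and sex-linked genes differed between libraries. The Y-linked helicase gene Ddx3y was listed at 0 in both Lgr5-Cdx2-Apc libraries and was 1.81, 0.113 and 0.0353 FPKM in control replicates 1, 2 and 3. It was at most 0.0299 FPKM in Lgr5-Apc and 13.9 to 15.9 FPKM in Cdx2-Apc. Xist, the RNA that silences an X chromosome, was 215 and 266 FPKM with both drivers, 154, 98.1 and 107 FPKM in control and at most 1.12 FPKM in Cdx2-Apc. Control replicate 1 thus held Y-linked RNA at a level below that of Cdx2-Apc and far above that of the other controls. In the comparison with Cdx2-Apc, the sex of the animals and the genotype cannot be told apart.

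Calls depended on single libraries. With Lgr5-Cdx2-Apc replicate 2 left out, 319 genes were called higher and 104 lower. The counts were 489 and 550 without Lgr5-Cdx2-Apc replicate 1, 654 and 569 without control replicate 2, and 642 and 353 without control replicate 3. Where 1 Lgr5-Cdx2-Apc library was left, the fit assumes that it varies like the other groups. Each of the 12 libraries was left out in turn, and 254 genes called higher and 77 called lower kept their call in all 12 fits. These are described below as stable. Calls of named genes that are not described as stable were lost in at least 1 of the 12 fits. Of 54 list counts of 1 to 3 genes in a direction, 53 moved by over 1.5 times with a single library left out. With short RNAs removed and totals made equal, 2621 genes were higher and 1280 lower, with quantile normalization 2017 and 2045, and with a pseudocount of 0.1 FPKM 1432 and 1536. Against a minimum log2 difference of 1, 68 genes were higher and 18 lower.

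**Figure D2:**
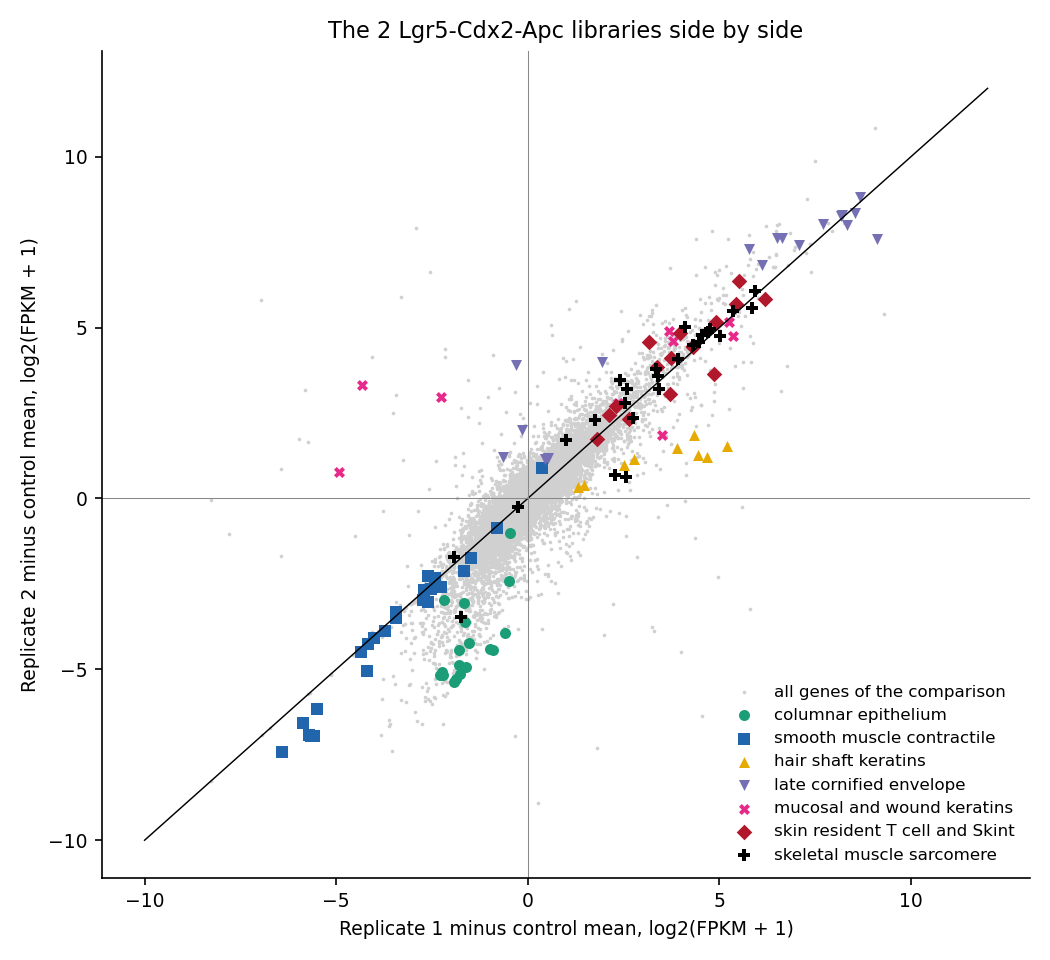
The difference from the control mean on the log2(FPKM + 1) scale is shown for each gene in Lgr5-Cdx2-Apc replicate 1 (x axis) and replicate 2 (y axis), with 7 gene lists in colour. Columnar epithelium genes lie below the line of equality and hair shaft keratins to its right, while smooth muscle, skeletal muscle and skin T cell genes mostly lie close to it.

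Apc and the 2 genes that name the drivers did not pass the test. Apc was 13.5 and 15 FPKM with both drivers and 18.8, 15.9 and 16.5 FPKM in control, without overlap (log2 difference -0.24 ± 0.16, SE; limma adjusted p = 0.28). Whether the floxed exon was lost cannot be read from these values. Lgr5 was 4.48 and 3.77 FPKM against 3.6, 5.4 and 5.95 FPKM in control, and the groups overlapped. Cdx2 was 18.5 and 1.44 FPKM against 2.71, 4.19 and 22 FPKM, so its spread within each group exceeded the difference between them.

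Smooth muscle genes fell together. Of the 24 contractile genes tested, 22 fell and 0 rose, with a median log2 difference of -3.42 beside 0.07 over all genes tested. The gamma actin of enteric smooth muscle, Actg2 (chromosome 6, 83512905 to 83536265 on GRCm38), was 8.33 and 3.59 FPKM in the 2 Lgr5-Cdx2-Apc libraries and 741, 723 and 921 FPKM in the 3 controls. Every Lgr5-Cdx2-Apc value lay far under every control value, and Actg2 fell by 6.92 ± 0.69 in log2 units (SE, with a limma adjusted p of 0.00049). The vascular and visceral actin Acta2 was 12.3 and 7.11 FPKM against 763, 749.6 and 811 FPKM, and the smooth muscle myosin heavy chain Myh11 was 6.68 and 2.32 FPKM against 519.8, 339.8 and 368 FPKM. Both fell without overlap, by 6.22 ± 0.65 and 6.32 ± 0.71 (SE). The calls of Actg2, Acta2, Myh11, Tagln, Cnn1, Myl9, Mylk, Synpo2, Cald1, Pgm5 and Lmod1 were stable. Mylk, the kinase that starts smooth muscle contraction, was 4.81 and 2.17 FPKM against 124, 79.2 and 117 FPKM and fell by 4.62 ± 0.59 (SE). Myocd, the coactivator that drives the smooth muscle programme, was 0.163 and 0.0656 FPKM against 7.67, 4.27 and 5.42 FPKM and fell by 2.58 ± 0.52 (SE; adjusted p = 0.012). Desmin, the muscle intermediate filament encoded by Des and shared with striated muscle, was 27.6 and 29.7 FPKM against 292, 265 and 371 FPKM and fell by 3.37 ± 0.56 (SE). The members that did not pass were Hspb6 at -0.83 ± 0.40 and Ldb3 at 0.62 ± 0.33 (SE). Among smooth muscle contractile genes, the count of 22 was 11 without Lgr5-Cdx2-Apc replicate 2.

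Some genes of the neurons and connective tissue cells of the gut muscle wall fell. Of 16 enteric neuron genes, 5 fell and 0 rose, with a median log2 difference of -1.77. Vip, a relaxing neuropeptide, was 0.131 and 0.211 FPKM against 6, 14.7 and 14.8 FPKM and fell by 3.36 ± 0.76 (SE; adjusted p = 0.017). Hand2, a transcription factor of enteric neurons, was 0.181 and 0.124 FPKM against 5.7, 4.79 and 7.74 FPKM and fell by 2.60 ± 0.61 (SE). The synaptic gene Snap25, the neuropeptide gene Tac1 and the neuronal hydrolase Uchl1 fell as well, by 2.66 ± 0.66, 3.03 ± 0.87 and 3.23 ± 0.94 (SE). The groups did not overlap for these 5 genes, and every Lgr5-Cdx2-Apc value was under 1.2 FPKM. Among enteric neuron genes, the count of 5 was 0 to 3 without Lgr5-Cdx2-Apc replicate 1 or 2 or control replicate 2 or 3 or Cdx2-Apc replicate 1 or 2 or 3 or Lgr5-Apc replicate 3, 10 to 12 without Lgr5-Apc replicate 2 or 4 and 12 in a fit on the 5 compared libraries. Of 12 genes of enteric glia and Schwann cells, Gfap, a glial filament, and Pmp22, a myelin protein, fell by 1.30 ± 0.38 and 2.02 ± 0.58, and Egr2, a factor of myelinating Schwann cells and keratinocytes, rose by 4.15 ± 1.14 (SE). For the interstitial cells of Cajal, the pacemaker cells of the gut, the defining genes Ano1 at -1.07 and Kit at -0.77 did not pass (adjusted p = 0.18 and 0.56). Foxf1, a mesenchymal transcription factor that gut smooth muscle needs, was 0.182 and 0.12 FPKM against 5.26, 8.7 and 11.5 FPKM and fell by 2.99 ± 0.55 (SE; adjusted p = 0.0088). Its relative Foxf2 fell by 2.11 ± 0.48 (SE).

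Skeletal muscle genes rose while smooth muscle genes fell. Of 25 sarcomere genes, 20 rose and 2 fell, with a median log2 difference of 3.50. Every control held 19 of the 25 under 1 FPKM, so the filter in large part fixed the count that rose. The skeletal actin Acta1 (chromosome 8, 123891769 to 123894751 on GRCm38) was 211 and 232 FPKM against 4.15, 3.92 and 4.4 FPKM in control and rose by 5.43 ± 1.33 (SE; adjusted p = 0.022). The perinatal myosin Myh8 was 64.1 and 71.2 FPKM against 0.103, 0.0557 and 0.0631 FPKM and rose by 6.0 ± 1.32 (SE). Both libraries with both drivers stood at about the same level, and all controls lay far below. Titin, the molecular spring encoded by Ttn, was 31.1 and 35.8 FPKM against 0.0472, 0.494 and 0.056 FPKM and rose by 4.86 ± 1.08 (SE). Myoz2, a Z-disc protein of slow and cardiac fibres, was 6.1 and 4.34 FPKM against 0, 0.0849 and 0.065 FPKM and had the one stable call of the list. Among genes of fast fibres, Tnnc2 rose by 4.88 ± 1.14, Mylpf by 4.56 ± 1.07 and Myh1 by 4.52 ± 1.06 (SE). The fast fibre myosin Myh4, a defining marker, was 0.0589 and 0.0174 FPKM against 0.0149, 0 and 0 FPKM and was not tested. The defining marker Ckm was 40.2 and 56.8 FPKM against 17, 8.79 and 14.9 FPKM and did not pass (limma adjusted p = 0.18). Slow fibre genes were mixed, since Myl3 rose by 5.72 ± 1.27 and Tnnt1 by 1.60 ± 0.47, and Tnni1 fell by 2.61 ± 0.71 (SE). The calsequestrin of slow and cardiac muscle, Casq2, fell by 1.81 ± 0.52 and that of fast muscle, Casq1, rose by 2.67 ± 0.71 (SE). Among sarcomere genes, the count of 20 was 1 to 7 without Lgr5-Cdx2-Apc replicate 1 or 2 or control replicate 2 or 3.

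Genes of calcium handling and fibre energy moved the same way. Of 20 tested, 10 rose and 1 fell, and 11 of the 20 were under 1 FPKM in every control. The calcium pump Atp2a1 was 40.6 and 53 FPKM against 0.0306, 0.0482 and 0.064 FPKM and rose by 5.50 ± 1.21 (SE). Mb, or myoglobin, was 36.9 and 53.5 FPKM against 0, 0.048 and 0.159 FPKM and rose by 5.41 ± 1.22 (SE). The calcium release channel Ryr1 rose by 2.82 ± 0.63, and the subunit Cox7a1, which smooth muscle also expresses, fell by 2.71 ± 0.56 (SE). Among calcium and energy genes, the count of 10 was 0 to 2 without Lgr5-Cdx2-Apc replicate 1 or 2 or control replicate 2 or 3 and 16 in a fit on the 5 compared libraries. Of the regulators of muscle fate, 4 of 16 listed were tested, and Mef2a rose by 1.44 ± 0.34 (SE). In Lgr5-Apc replicate 2, Acta1 was 205 FPKM, a level like that of the 2 libraries with both drivers, and it was at most 12.6 FPKM in the other Lgr5-Apc and Cdx2-Apc libraries.

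Both muscle programmes use the CArG box, the site of serum response factor, and promoters with this site stood on both sides of the comparison. The motif was searched by its name's standard consensus on both strands in the 250 bases before the start site (RefSeq sequences, GRCm38.p6). It was found for 2 of 19 tested smooth muscle genes with a promoter entry, 2 of 19 tested sarcomere genes, 1.51% of all 11104 tested genes with an entry and 1.62% of 27025 genes with one. Myh4, a sarcomere gene that was not tested, also holds it. Of the 4 tested muscle genes, Myl9 fell, Acta1 and Myl3 rose, and Ldb3, a Z-disc gene on the smooth muscle list, did not pass. The motif is in capitals in the 3 promoters below, which are shown because genes of opposite direction carry it. A match is a description and not a bound site.
Myl9 (chr2:156775214-156775463, plus strand, motif from -161): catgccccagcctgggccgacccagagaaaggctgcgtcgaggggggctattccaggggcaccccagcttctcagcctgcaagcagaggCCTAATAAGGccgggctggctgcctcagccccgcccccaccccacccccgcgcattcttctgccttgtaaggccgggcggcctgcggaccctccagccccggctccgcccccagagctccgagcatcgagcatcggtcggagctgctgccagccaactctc
Acta1 (chr8:123894776-123895025, minus strand, motif from -73): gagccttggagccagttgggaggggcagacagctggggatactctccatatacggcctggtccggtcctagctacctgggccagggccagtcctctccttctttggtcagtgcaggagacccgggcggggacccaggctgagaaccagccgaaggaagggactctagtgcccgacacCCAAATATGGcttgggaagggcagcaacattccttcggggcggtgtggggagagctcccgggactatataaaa
Myl3 (chr9:110763428-110763677, plus strand, motif from -85): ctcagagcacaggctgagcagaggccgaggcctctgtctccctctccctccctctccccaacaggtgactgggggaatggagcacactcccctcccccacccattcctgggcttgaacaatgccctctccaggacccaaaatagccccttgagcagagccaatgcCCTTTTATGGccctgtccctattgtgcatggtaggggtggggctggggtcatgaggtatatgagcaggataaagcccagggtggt
The regulatory light chain Myl9 was 6.77 and 3.93 FPKM against 424, 268 and 373 FPKM in control and fell by 5.82 ± 0.65, while the light chain Myl3, of slow skeletal and cardiac muscle, was 60.1 and 49.5 FPKM against 0, 0.16 and 0 FPKM (SE).

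**Figure D3:**
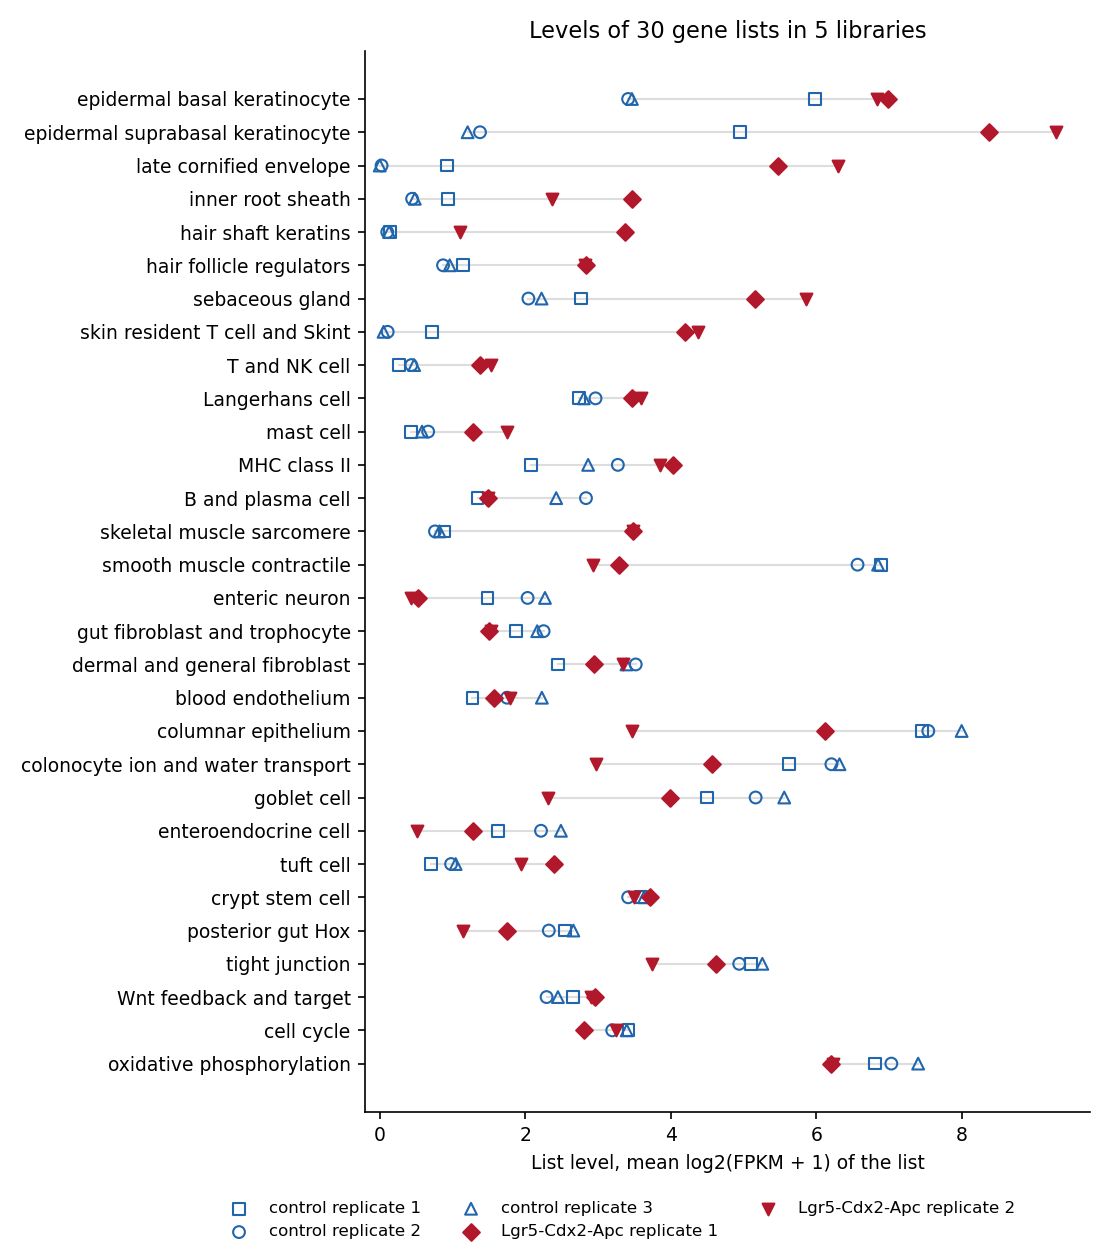
Levels of 30 gene lists (mean log2(FPKM + 1) of the list, x axis) are shown in the 3 control libraries (open blue) and the 2 Lgr5-Cdx2-Apc libraries (filled red). Both Lgr5-Cdx2-Apc libraries lie above all controls for the plotted keratinocyte, cornified envelope, hair, sebaceous gland, T cell and skeletal muscle lists and below all controls for smooth muscle, enteric neuron and columnar epithelium lists.

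Genes of the outer, cornifying epidermis rose. Krt2 (chromosome 15, 101810689 to 101818169 on GRCm38), a keratin of the upper epidermis, was 641 and 2193 FPKM against 0.767, 0 and 0 FPKM in control and rose by 9.94 ± 1.47 (SE; adjusted p = 0.0033), a stable call. Of 15 suprabasal keratinocyte genes, 3 rose, although all 15 were higher in both libraries than in every control, as were 32.1% of the genes tested, and their median log2 difference was 6.43. The count of 3 was 1 without Lgr5-Cdx2-Apc replicate 1 or 2 or control replicate 2 or 3, 5 to 10 without Lgr5-Apc replicate 2 or 4 and 10 in a fit on the 5 compared libraries. The other called members were Dsg1a, a desmosomal cadherin, with 129 and 202 FPKM against 1.87, 0.0465 and 0.0367 FPKM, and Krt77. The suprabasal keratins Krt1 and Krt10 did not pass. Krt10 was 2734 and 6923 FPKM against 282, 8.23 and 9.93 FPKM, and the high value is that of control replicate 1 (log2 difference 7.15 ± 2.85, SE; adjusted p = 0.098). Of 15 basal keratinocyte genes, 2 rose, Bnc1, a basonuclin, by 2.77 ± 0.82 and the laminin chain Lama3 by 1.12 ± 0.35 (SE). This share, 13.3%, is near the 10.5% over all genes tested. The count was 0 without control replicate 2 or 3 or Cdx2-Apc replicate 1 or 2 or 3. It was 4 without control replicate 1 or Lgr5-Apc replicate 2. Trp63, the master regulator of stratified epithelium, was 142 and 175 FPKM against 62.2, 1.36 and 0.641 FPKM and did not pass (adjusted p = 0.15).

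The cornified envelope is the protein shell of dead surface cells. Of 18 late cornified envelope genes, 12 rose with a median log2 difference of 7.09, and 10 were under 1 FPKM in every control. Lce1l was 324 and 256 FPKM with both drivers and listed at 0 in all 3 controls. Among late cornified envelope genes, the count of 12 was 0 to 1 without Lgr5-Cdx2-Apc replicate 1 or 2 or control replicate 2 or 3. Of 19 other envelope genes, 8 rose. Flg2, a filaggrin relative, was 226 and 134 FPKM against 1.47, 0.0059 and 0 FPKM and rose by 7.01 ± 1.56 (SE), and hornerin, encoded by Hrnr, was 41.7 and 219 FPKM against 0.456, 0.0111 and 0.0143 FPKM. Tchhl1 and Tchh, envelope proteins of hair follicle cells, had stable calls at 2.07 ± 0.16 and 3.85 ± 0.51 (SE). Among other envelope genes, the count of 8 was 2 to 5 without Lgr5-Cdx2-Apc replicate 1 or 2 or control replicate 2 or 3 or Cdx2-Apc replicate 1 or 2 or 3. Few genes of the small proline-rich proteins had a call. Of 15, Sprr2f and Sprr4, both listed at 0 in every control, rose to 9.36 and 7.23 FPKM and 19.4 and 37.1 FPKM, and Sprr2a2 fell by 2.23 ± 0.59 (SE). These shares, 13.3% and 6.67%, are near the 10.5% higher and 8.55% lower over all genes tested. Every control held 7 of the 15 under 1 FPKM, and the higher count was 0 without control replicate 2 or 3.

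Part of the lipid genes of the skin barrier rose too. Of 19 barrier lipid genes, 8 rose. Elovl4, which makes very long acyl chains for ceramides, was 262 and 748 FPKM against 8.33, 0.694 and 0.544 FPKM and rose by 7.26 ± 2.18 (SE; adjusted p = 0.043). The lipoxygenase Aloxe3 was 28.9 and 31.2 FPKM against 0.172, 0.0434 and 0.129 FPKM and the lipid transporter Abca12 45.7 and 72 FPKM against 2.55, 0.129 and 2.86 FPKM. Neither overlapped between groups, and they rose by 4.80 ± 1.12 and 4.55 ± 1.18 (SE). Among epidermal barrier lipid genes, the count of 8 was 0 to 5 without Lgr5-Cdx2-Apc replicate 1 or 2 or control replicate 1 or 2 or 3 or Cdx2-Apc replicate 1 or 2 or 3, 13 to 14 without Lgr5-Apc replicate 2 or 4 and 18 in a fit on the 5 compared libraries. Of 20 skin proteases and inhibitors, 3 rose, the kallikreins Klk5 and Klk7, which cut the junctions of shedding cells, by 5.42 ± 1.07 and 6.67 ± 1.80, and the serpin Serpinb13 by 2.74 ± 0.69 (SE). This share is near the 10.5% over all genes tested, and the count of 3 was 0 to 1 without Lgr5-Cdx2-Apc replicate 1 or 2 or control replicate 2 or 3, 5 to 8 without Lgr5-Apc replicate 2 or 3 or 4 and 9 in a fit on the 5 compared libraries.

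Of 18 transcription factors of squamous epithelium, 5 rose and 1 fell. Pou2f3, a POU factor of the suprabasal epidermis and of tuft cells, was 59.2 and 53.3 FPKM against 1.02, 0.0597 and 0.147 FPKM and rose by 5.41 ± 1.00 (SE; adjusted p = 0.0092). Pou3f1 rose by 4.30 ± 1.06, Tfap2c by 4.14 ± 1.26, Dlx3 by 3.09 ± 0.89 and Tbx1 by 2.47 ± 0.54 (SE). Klf5, which gut crypts and squamous epithelium share, was 127 and 113 FPKM against 223, 201 and 281 FPKM and fell by 0.95 ± 0.22 (SE). Among squamous transcription factors, the count of 5 was 0 to 3 without Lgr5-Cdx2-Apc replicate 1 or 2 or control replicate 2 or 3 or Cdx2-Apc replicate 1 or 2 or 3, 9 without Lgr5-Apc replicate 2 and 8 in a fit on the 5 compared libraries. Keratins of wet, mucosal squamous epithelium varied within groups. Krt4 was 1.44 and 494 FPKM with both drivers against 701, 15.2 and 9.46 FPKM in control, and Krt13 was 1.28 and 118 FPKM against 1015, 22 and 13.1 FPKM. Replicate 1 with both drivers was at the bottom of all 5 libraries for both genes, and control replicate 1 at the top. Of 9 mucosal and wound keratins, 1 rose, the companion layer keratin Krt75, by 2.68 ± 0.75 (SE).

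Hair follicle genes rose, many with stable calls. The inner root sheath moulds the growing hair, and of 13 genes of it 10 rose and 0 fell, with a median log2 difference of 2.16. Of the 13, 10 were under 1 FPKM in every control, so the filter in large part fixed this count. Krt71 was 57.1 and 15.3 FPKM against 0.0474, 0 and 0 FPKM in control and rose by 4.92 ± 0.45 (SE; adjusted p = 0.00039). It passed the filter through the Lgr5-Cdx2-Apc libraries alone, so its p-value and stable call are descriptions. Krt27 was 17.9 and 6.73 FPKM and listed at 0 in all controls, and Krt25 was 18.6 and 5.49 FPKM against 0, 0.0202 and 0 FPKM. Of the 10 calls 9 were stable, including Krt26, Krt28, Krt72, Krt73, Tchh and Padi3, an enzyme that modifies trichohyalin. Replicate 1 was higher than replicate 2 for each of these 9 genes.

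Hair shaft keratins were higher in replicate 1 than in replicate 2. Of 9 tested of 14 listed, 7 rose, but 8 of the 9 were under 1 FPKM in every control, and the filter in large part fixed this count. Krt86 was 19.5 and 2.68 FPKM against 0, 0.0229 and 0 FPKM, and Krt34 was 13.9 and 1.77 FPKM and listed at 0 in all controls. These calls were stable, while that of Krt33b, at 24.7 and 1.33 FPKM and 0 in all controls, was not. Among hair shaft keratins, the count of 7 was 2 to 3 without control replicate 2 or 3 and 3 in a fit on the 5 compared libraries. The keratin-associated proteins, which crosslink shaft keratins, were counted after their values were seen. All 34 such genes tested were under 1 FPKM in every control and so passed the filter through other libraries, and their count higher, 32, is given as a description. Of the 34, 27 had stable calls, 28 were listed at 0 in every control, and 31 were higher in replicate 1 than in replicate 2. Krtap19-2 was 19.3 and 7.48 FPKM and Krtap19-4 19.8 and 8.57 FPKM, and both rose with stable calls, by 3.71 ± 0.29 and 3.61 ± 0.31 (SE).

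Of 13 regulators of the hair follicle, 10 rose and 0 fell. Every control held 7 of the 13 under 1 FPKM, so the filter in part fixed this count. Nfatc1, a factor of quiescent bulge stem cells, was 23 and 21.9 FPKM against 3.11, 3.42 and 4.89 FPKM and rose by 2.30 ± 0.27 (SE; adjusted p = 0.0014), and Hoxc13, a factor that hair keratin genes need, was 3.89 and 2.77 FPKM against 0.04, 0 and 0 FPKM and rose by 2.08 ± 0.30 (SE). Both calls were stable. Lgr6, a receptor of R-spondin on stem cells of the follicle isthmus, was 16.3 and 23.9 FPKM against 0.687, 0.0661 and 0.0306 FPKM and rose by 4.08 ± 0.64 (SE). Lhx2 and Edaradd, genes of follicle formation, rose by 3.37 ± 0.61 and 2.82 ± 0.52 (SE). Among hair follicle regulators, the count of 10 was 3 to 6 without Lgr5-Cdx2-Apc replicate 1 or 2 or control replicate 2. Of 17 sebaceous gland genes, 7 rose, with a median of 3.39. Scd1, a desaturase of sebum lipids, was 603 and 973 FPKM against 54.4, 17 and 43.2 FPKM, and the melanocortin receptor Mc5r was 8.71 and 11.6 FPKM against 0.113, 0.0554 and 0 FPKM. They rose by 4.44 ± 1.18 and 3.39 ± 0.72 (SE). Among sebaceous gland genes, the count of 7 was 0 to 3 without Lgr5-Cdx2-Apc replicate 1 or 2 or control replicate 2 or 3, 13 to 14 without Lgr5-Apc replicate 2 or 4 and 14 in a fit on the 5 compared libraries. Melanocyte genes were near the detection limit of the filter, since 3 of 12 were tested, and Dct, a pigment enzyme, rose from 0.143, 0.068 and 0.308 FPKM to 1.35 and 1.68 FPKM.

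**Figure D4:**
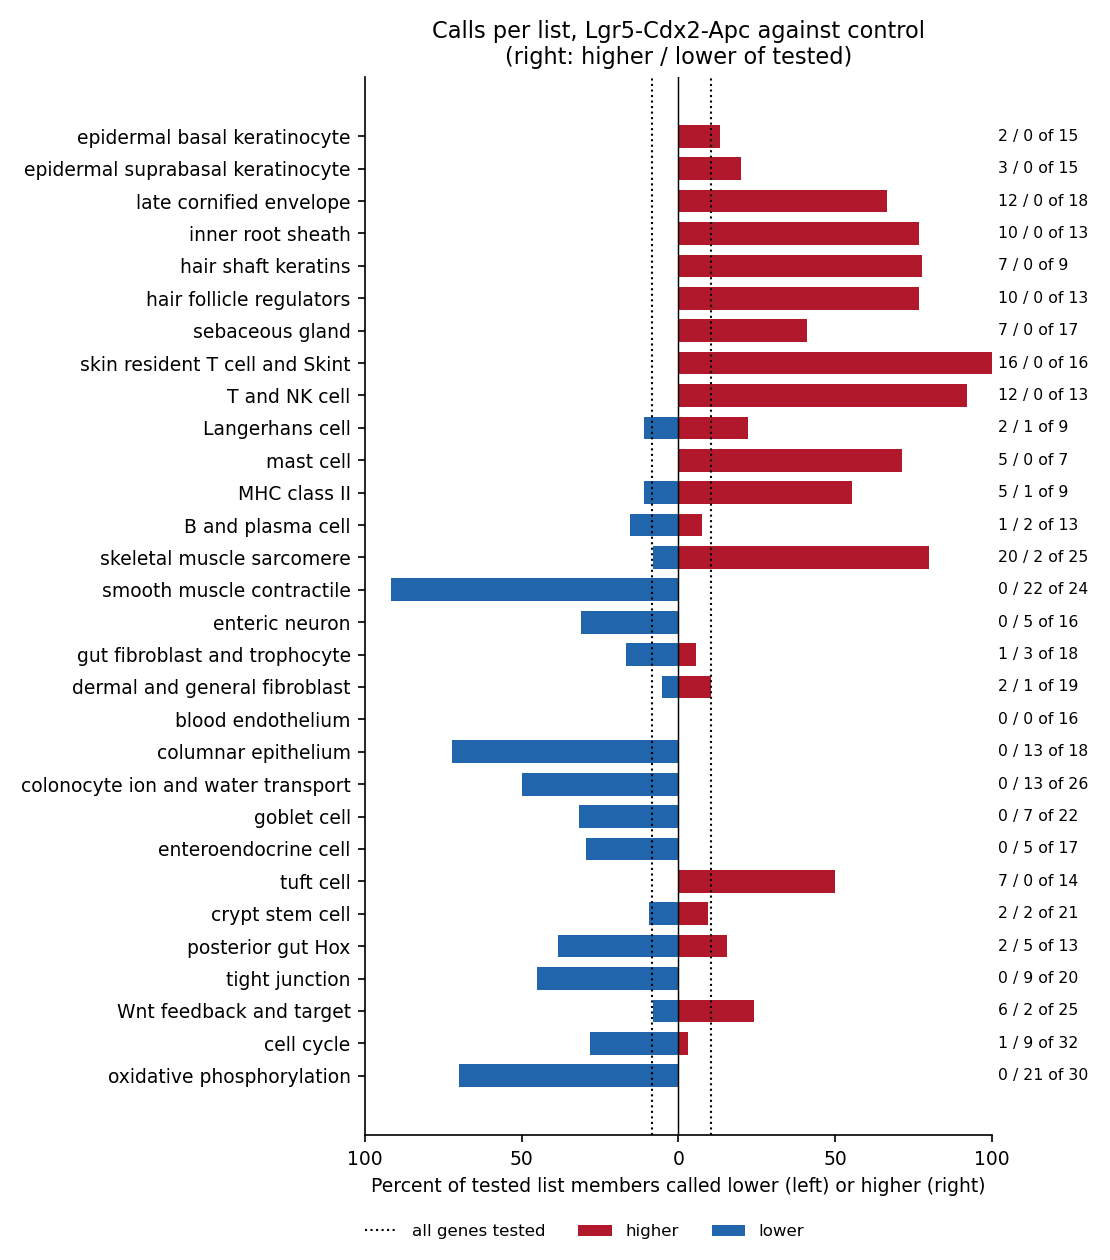
For 30 gene lists, bars give the percent of tested members called higher (right, red) or lower (left, blue) in Lgr5-Cdx2-Apc against control, and dotted lines mark 10.5% and 8.55%, the shares over all genes tested. All 16 genes of skin T cells and the Skint family were called higher, 22 of 24 smooth muscle genes lower, and 0 of 16 blood endothelium genes either way. The filter in large part fixed the first share, since 14 of the 16 skin T cell and Skint genes were under 1 FPKM in every control.

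Genes of the T cells that reside in mouse epidermis rose in both libraries. These dendritic epidermal T cells carry an invariant gamma delta receptor and are selected by Skint proteins of keratinocytes. All 16 genes of the list rose, with a median log2 difference of 4.08, and 8 calls were stable. Of the 16, 14 were under 1 FPKM in every control and passed the filter elsewhere, so the filter in large part fixed this count. The receptor segments Trdv4 and Tcrg-V5, which the invariant receptor uses, were 22.1 and 24.2 FPKM and 12 and 7.32 FPKM. In control they were 0.566, 0 and 0 FPKM and 0 throughout, and they rose by 4.38 ± 0.35 and 3.38 ± 0.36 (SE; adjusted p = 0.00029 and 0.00081), with stable calls. Skint5 was 84.1 and 66 FPKM against 0.603, 0 and 0 FPKM, and Skint9 was 48.1 and 88.1 FPKM against 0.237, 0 and 0 FPKM, also with stable calls. Both libraries were far above every control for these genes. Among skin T cell and Skint genes, the count of 16 was 8 without Lgr5-Cdx2-Apc replicate 2.

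General T and NK cell genes rose as well. Of 25 listed, 13 were tested, 12 rose and 0 fell, but 11 of the 13 were under 1 FPKM in every control, so this count was in large part fixed by the filter. The receptor subunit Cd3e was 11.1 and 11.3 FPKM against 0.249, 0.312 and 0.524 FPKM in control, and it was 0.152 to 1.03 FPKM in the 7 single-driver libraries. It rose by 3.17 ± 0.26 (SE; adjusted p = 0.00029), a stable call. The receptor subunits Cd3g, Cd247 and Cd3d and the cytotoxic granule genes Nkg7 and Prf1 had stable calls too, at 2.95 ± 0.29, 2.21 ± 0.20, 1.62 ± 0.21, 2.77 ± 0.28 and 1.19 ± 0.16 (SE). Prf1, or perforin, was 1.39 and 1.19 FPKM and listed at 0 in all controls. The constant segments of the alpha beta receptor rose in Trbc2 by 2.87 ± 0.49 and Trbc1 by 1.14 ± 0.21 (SE). Among T and NK cell genes, the count of 12 was 6 without Lgr5-Cdx2-Apc replicate 2.

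Antigen-presenting and mast cell genes of skin rose in part. Cd207, the langerin of Langerhans cells in epidermis, was 16.4 and 20.1 FPKM against 0.389, 0.259 and 0.203 FPKM and rose by 3.90 ± 0.51 (SE; adjusted p = 0.0019). Runx3, a factor that Langerhans cells and T cells share, was 5.04 and 4.05 FPKM against 0.0822, 0.403 and 0.404 FPKM and rose by 2.10 ± 0.22 (SE). Both calls were stable, and of the 9 genes on the Langerhans cell list the only one lower was Epcam, which gut epithelium expresses. Of 9 genes of MHC class II presentation, 5 rose and 1 fell. Ciita, the master regulator of these genes, was 4.63 and 3.62 FPKM against 0.325, 0.678 and 0.542 FPKM, H2-DMa was 16.2 and 16.2 FPKM against 1.32, 3.75 and 2.5 FPKM, and both had stable calls. H2-Ab1 rose by 2.53 ± 0.62 and the protease gene Ctss fell by 2.17 ± 0.59 (SE). Among MHC class II genes, the count of 5 was 2 to 3 without Lgr5-Cdx2-Apc replicate 1 or 2 or control replicate 3. Of 7 mast cell genes 5 rose, and Mrgprb2, the receptor that marks connective tissue mast cells, was 5.04 and 2.73 FPKM and listed at 0 in all controls. The chymase Mcpt4 was 3.19 and 9.44 FPKM against 0.257, 0.179 and 0.0813 FPKM and rose by 2.50 ± 0.35 (SE), and both calls were stable. Of the defining markers, Cma1 was 2.19 and 5.89 FPKM against 0.32, 2.39 and 1.37 FPKM, overlapped control and did not pass (limma adjusted p = 0.17). Cpa3, at 0.952 and 8.03 FPKM against 0, 0.0415 and 0 FPKM, was not tested. Every control held 4 of the 7 tested mast cell genes under 1 FPKM. Among mast cell genes, the count of 5 was 3 without Lgr5-Cdx2-Apc replicate 2. Macrophage genes such as Csf1r, with 16.5 and 18.2 FPKM against 1.69, 9.74 and 5.61 FPKM, mostly did not pass, and of 16 on the list 2 rose, Itgam and Itgax, and Cd14 fell. These shares, 12.5% and 6.25%, are near the 10.5% higher and 8.55% lower over all genes tested.

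Of 13 B and plasma cell genes, 1 rose and 2 fell. Igkc, the kappa light chain, was 1.65 and 1.61 FPKM against 7.78, 491 and 187 FPKM and fell by 5.15 ± 1.52 (SE; adjusted p = 0.041). Jchain and Igha, needed for secreted IgA of the gut, were 0.375 and 0.247 FPKM against 1.67, 94.1 and 42.6 FPKM and 0.734 and 0.781 FPKM against 1.38, 139.7 and 53 FPKM, and did not pass (adjusted p = 0.052 and 0.079). Control replicate 1 stood nearer than the other controls to the libraries with both drivers for these 3 genes. The neutrophil list held 3 genes that fell, Cd177, Pglyrp1 and Ly6g, by 3.49 ± 0.43, 4.23 ± 0.90 and 5.06 ± 1.48 (SE), and 1 that rose, Mmp9, by 2.66 ± 0.26 (SE). The calls of Cd177 and Mmp9 were stable. The neutrophil granule genes S100a8 and S100a9 did not pass and were higher in both libraries than in every control, with S100a8 at 13.8 and 66.4 FPKM against 1.9, 0.193 and 0.301 FPKM.

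Chemokine genes mostly had no call, and those with one mostly rose. Of 23, 10 rose and 1 fell. Ccl27a, a chemokine of keratinocytes that draws T cells to skin, was 178 and 60.6 FPKM against 3.34, 2.95 and 3.33 FPKM and rose by 4.64 ± 0.98 (SE; adjusted p = 0.014). Its mucosal relative Ccl28 was 6.26 and 0.802 FPKM against 31.8, 37.3 and 35.9 FPKM and fell by 3.31 ± 0.62 (SE). Xcl1, made by T and NK cells, was 7.48 and 7.69 FPKM against 0.398, 0.476 and 0.246 FPKM, and Ccl8 was 17.3 and 34.9 FPKM against 2.21, 2.47 and 2.49 FPKM. Both were stable, as were Cxcl2 and Ccl1. Among chemokine genes, the count of 10 was 4 without Lgr5-Cdx2-Apc replicate 2. Of 13 interleukin and TNF family genes, 7 rose, among them Tnf, with a stable call, from 0.0727, 0.351 and 0.199 FPKM to 2.34 and 2.06 FPKM, and the epidermal family members Il1f5, Il1f9 and Il1f10, by 5.75 ± 1.73, 4.07 ± 1.23 and 2.68 ± 0.52 (SE). Among interleukin and TNF family genes, the count of 7 was 1 to 4 without Lgr5-Cdx2-Apc replicate 1 or 2 or control replicate 2 or 3 or Cdx2-Apc replicate 1 or 2 or 3. Of 22 interferon response genes 1 rose, Tap1, and 2 fell, Oas1a and Oasl1.

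Columnar gut epithelium was lower with both drivers, and more so in replicate 2. Of 18 genes, 13 fell and 0 rose, with a median log2 difference of -2.99. Krt8, a simple epithelial keratin, was 167 and 20.5 FPKM against 692, 670.2 and 1020.0 FPKM and fell by 3.70 ± 0.82 (SE; adjusted p = 0.016). Vil1, the villin of the brush border, was 41.6 and 3.21 FPKM against 124, 109 and 157 FPKM, and Epcam was 175 and 65.4 FPKM against 415, 569 and 709 FPKM. Replicate 1 kept a larger part of each level than replicate 2, and both lay below all controls. The defining markers of rectal epithelium were thus present in both libraries, at reduced levels. Among columnar epithelium genes, the count of 13 was 0 to 3 without Lgr5-Cdx2-Apc replicate 2 or control replicate 2 or 3 and 7 in a fit on the 5 compared libraries. Over the same libraries, the level of the skeletal muscle sarcomere list was 3.49 and 3.48 against 0.89, 0.76 and 0.82 in control, and that of the suprabasal keratinocyte list 8.38 and 9.29 against 4.95, 1.38 and 1.21. The part of these other tissues in the lower gut and smooth muscle values was not tested.

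Genes of the absorptive colonocyte fell with the columnar genes. Of 26 genes of ion and water transport, 13 fell and 0 rose. Car2, a carbonic anhydrase, was 59.3 and 27 FPKM against 332, 516 and 622 FPKM and fell by 3.53 ± 0.41 (SE; adjusted p = 0.0013), with the one stable call of the list. The chloride and bicarbonate exchanger Slc26a3 was 51.7 and 4.54 FPKM against 253, 415 and 367 FPKM, and the water channel Aqp8 was 33.5 and 1.39 FPKM against 191, 248 and 263 FPKM. They fell by 4.31 ± 0.88 and 4.68 ± 1.06 (SE). Among ion and water transport genes, the count of 13 was 1 to 6 without Lgr5-Cdx2-Apc replicate 2 or control replicate 2 or 3. Of 23 genes of colonocyte metabolism and surface defence, 6 fell, among them Lypd8, which keeps flagellated bacteria off the epithelium, from 3018, 4843 and 5667 FPKM to 947 and 80.4 FPKM. The transmembrane mucins Muc3 and Muc13 fell by 3.98 ± 0.94 and 3.74 ± 0.85 (SE). As a description with no test, the columnar epithelium level of the same library was subtracted from list levels. So taken, the transport list stood at -1.55 and -0.49 against -1.83, -1.33 and -1.68 in control. The metabolism and defence list stood at -0.21 and 0.15 against -1.28, -1.33 and -0.97. Lists that did not fall also stand higher when so taken, because the columnar level itself fell. The blood endothelium list, with no gene called, stood at -4.54 and -1.68 against -6.18, -5.79 and -5.77 in control. A list at low levels also has less room to fall on the log2(FPKM + 1) scale. Among colonocyte metabolism and defence genes, the count of 6 was 0 to 2 without Lgr5-Cdx2-Apc replicate 2 or control replicate 2 or 3 and 10 without Lgr5-Apc replicate 4.

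Some genes of secretory lineages fell, and their defining markers were mixed. The goblet cell marker Tff3 and the enteroendocrine marker Insl5 fell, while Muc2, Fcgbp, Chga and Chgb did not pass. Of 22 goblet cell genes 7 fell, and Tff3, a trefoil peptide, was 346 and 37.8 FPKM against 660.0, 2145 and 2721 FPKM. The gel-forming mucin Muc2 was 414 and 45.8 FPKM against 130.2, 345 and 767 FPKM, and Fcgbp, a mucus protein, 585 and 352 FPKM against 173, 484 and 647 FPKM. Both overlapped control and did not pass (adjusted p = 0.65 and 0.79). Spink4 fell by 3.84 ± 0.88 and the glycosyltransferase B3gnt7 by 5.09 ± 1.26 (SE). Less the columnar epithelium level of the same library, the goblet cell list stood at -2.12 and -1.16 against -2.96, -2.37 and -2.44 in control. Among goblet cell genes, the count of 7 was 0 to 4 without Lgr5-Cdx2-Apc replicate 2 or control replicate 2 or 3 or Cdx2-Apc replicate 3 and 11 to 14 without Lgr5-Apc replicate 2 or 4. Of 17 enteroendocrine genes 5 fell, and Insl5, a hormone of distal colon L cells, was 4.94 and 0.163 FPKM against 15.8, 93.2 and 76.9 FPKM and fell by 4.24 ± 1.03 (SE). The granins Chga and Chgb overlapped control and did not pass (adjusted p = 0.45 and 0.41). Less the columnar level, the enteroendocrine list stood at -4.84 and -2.96 against -5.83, -5.32 and -5.51 in control. Among enteroendocrine cell genes, the count of 5 was 0 to 3 without Lgr5-Cdx2-Apc replicate 1 or 2 or control replicate 2 or 3 or Cdx2-Apc replicate 1 or 2 or 3 or Lgr5-Apc replicate 3. Of 14 genes on the tuft cell list, 7 rose and 0 fell, and 6 of the 14 were under 1 FPKM in every control. The members that rose were Alox5, Alox5ap, Ltc4s, Ptgs1 and Hpgds of leukotriene and prostaglandin synthesis, Il17rb and Pou2f3, all of which other cells such as mast cells or keratinocytes also express. Alox5 was 7.79 and 5.88 FPKM against 0.341, 0.725 and 0.529 FPKM and had a stable call. Among tuft cell genes, the count of 7 was 2 to 3 without Lgr5-Cdx2-Apc replicate 1 or 2.

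Part of the intestinal transcription factors fell. Of 18, 9 fell and 0 rose. Less the columnar epithelium level of the same library, the list stood at -3.04 and -1.96 against -3.82, -3.97 and -3.78 in control. Its level thus fell by less than the columnar level did. A list at lower levels has less room to fall on this scale, so no relative retention can be read from these values, and none was tested. Foxa1 was 6.2 and 4.08 FPKM against 32, 20 and 32.3 FPKM and fell by 2.24 ± 0.36 (SE; adjusted p = 0.0054). Hnf4a, a nuclear receptor of enterocyte identity, was 45.6 and 3.67 FPKM against 119, 94.6 and 147 FPKM and fell by 3.02 ± 0.89 (SE), and Cdx1, the partner of Cdx2, fell by 3.33 ± 0.84 (SE). Myb, a factor of colonic progenitors that stands on another list, was 4.72 and 2.73 FPKM against 28.2, 40.5 and 40.2 FPKM and fell by 2.99 ± 0.46 (SE). Among intestinal transcription factors, the count of 9 was 0 to 4 without Lgr5-Cdx2-Apc replicate 2 or control replicate 2 or 3. Posterior Hox genes, which pattern the hind end of gut and body, changed in both directions. Of 13, 5 fell and 2 rose. Hoxd13 was 4.08 and 0.787 FPKM against 76.2, 62.1 and 70.1 FPKM and Hoxa13 3.29 and 0.242 FPKM against 20, 22.5 and 26.9 FPKM, and they fell by 4.54 ± 1.38 and 3.38 ± 0.94 (SE). Hoxc13 and Hoxc9 rose, by 2.08 ± 0.30 and 1.25 ± 0.28 (SE). Among posterior gut Hox genes, the count of 5 was 0 to 3 without Lgr5-Cdx2-Apc replicate 1 or 2 or control replicate 1 or 2 or 3 or Cdx2-Apc replicate 1 or 2 or 3. Of 20 tight junction genes 9 fell and 0 rose, with a stable call for the scaffold Magi3, at 6.23 and 3.81 FPKM against 22.4, 22.8 and 22.9 FPKM. Among tight junction genes, the count of 9 was 1 to 3 without Lgr5-Cdx2-Apc replicate 2 or control replicate 2 or 3.

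The letters TTTATG, the core of sites bound by Cdx proteins, were searched in the same promoter windows on both strands. They were found for 3 of 16 columnar genes with an entry, 3 of 12 goblet cell genes, 2 of 13 transport genes, all of them tested, beside 8.20% of all 11104 tested genes with an entry and 12.4% of 27025 genes with one. The promoter of Epcam, which fell, is shown because it holds a match, while Cdhr5 and Espn, the other columnar genes with one, did not pass. The match reads CATAAA on the strand printed.
Epcam (chr17:87635729-87635978, plus strand, motif from -28): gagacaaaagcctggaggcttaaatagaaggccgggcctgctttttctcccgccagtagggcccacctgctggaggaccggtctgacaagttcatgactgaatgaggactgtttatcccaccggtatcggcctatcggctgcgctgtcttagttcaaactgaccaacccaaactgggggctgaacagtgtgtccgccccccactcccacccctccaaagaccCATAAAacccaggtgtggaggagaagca

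A minority of Wnt genes changed. Of 25 feedback and target genes, 6 rose and 2 fell, with a median log2 difference of 0.21. Axin2, the feedback inhibitor that serves as a general readout of beta-catenin, was 20.5 and 14.6 FPKM against 9.31, 6.98 and 10.8 FPKM and rose by 0.88 ± 0.27 (SE; adjusted p = 0.047). The values did not overlap, but 14 alternative settings ended the call, among them the fits without either Lgr5-Cdx2-Apc library. The difference from Cdx2-Apc was 0.45 and did not pass (limma adjusted p = 0.24). Lgr6 and Tnfrsf19, which hair follicles express, rose by 4.08 ± 0.64 and 3.94 ± 0.68, Apcdd1, a Wnt inhibitor of the hair follicle, by 3.30 ± 0.97 and Wif1 by 1.26 ± 0.34 (SE). Tcf7, a partner of beta-catenin that T cells express, was 4.53 and 5.54 FPKM against 1.63, 1.57 and 1.51 FPKM and rose by 1.23 ± 0.23 (SE). Ephb2, a receptor of crypt bases, fell by 1.80 ± 0.47 and Tcf7l2, the main gut partner of beta-catenin, by 1.35 ± 0.42 (SE). Among Wnt feedback and target genes, the count of 6 was 0 to 3 without Lgr5-Cdx2-Apc replicate 1 or 2 or control replicate 2 or 3. Of 21 crypt stem cell genes 2 rose and 2 fell, among them Reg4, a gene of deep crypt secretory cells, from 86.2, 252 and 201 FPKM to 10.8 and 1.81 FPKM. Each share, 9.52%, is near the 10.5% higher and 8.55% lower over all genes tested.

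Of 15 genes of the destruction complex, 2 rose, Axin2 and the casein kinase Csnk1e, the latter from 6.6, 5.55 and 6.24 FPKM to 21.5 and 21 FPKM. This share, 13.3%, is near the 10.5% over all genes tested. Beta-catenin itself, encoded by Ctnnb1, was 158 and 162 FPKM against 218, 214 and 240.0 FPKM and did not pass (adjusted p = 0.11). Of 34 Wnt ligands, receptors and R-spondins, 8 rose and 1 fell. The ligand Wnt3 was 19.5 and 17.9 FPKM against 1.04, 0 and 0 FPKM, Wnt3a, Wnt6 and Wnt10b rose by 2.11 ± 0.59, 1.01 ± 0.26 and 1.55 ± 0.37 (SE), and Rspo4, the R-spondin of the nail and skin, was 1.39 and 1.42 FPKM and listed at 0 in all controls, with a stable call. The R-spondin receptor Lgr4 was 47.7 and 43.9 FPKM against 110.5, 109 and 126 FPKM and fell by 1.31 ± 0.26 (SE). Among Wnt ligand and receptor genes, the count of 8 was 1 to 5 without Lgr5-Cdx2-Apc replicate 1 or 2 or control replicate 2 or 3 or Cdx2-Apc replicate 1 or 2.

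Other signalling lists held few calls. Of 16 Notch genes 2 rose and 3 fell. Hes1, a target that keeps progenitors undifferentiated, fell from 68.7, 57.5 and 63.4 FPKM to 33.9 and 28.5 FPKM, and Nrarp, a feedback gene, rose from 12.8, 5.92 and 11.2 FPKM to 32.6 and 37.5 FPKM. The 2 higher Notch genes became 0 without Cdx2-Apc replicate 1 or 2 or 3 or Lgr5-Apc replicate 3 or Lgr5-Cdx2-Apc replicate 1 or 2 or control replicate 2 or 3, 7 to 8 without Lgr5-Apc replicate 2 or 4 and 4 in a fit on the 5 compared libraries, and the 3 lower became 0 to 1 without Lgr5-Cdx2-Apc replicate 1 or 2 or Cdx2-Apc replicate 2 or control replicate 2 or 3. Of 20 BMP and hedgehog genes, Bmp7 rose by 2.46 ± 0.53 and Id1 and Ihh fell by 1.53 ± 0.35 and 2.76 ± 0.81 (SE). Of 18 genes of fetal-like and regenerating gut epithelium, the growth factor Epgn rose, with a stable call at 3.5 and 3.56 FPKM against 0, 0.0474 and 0.0506 FPKM, and Anxa3 and Areg fell by 3.26 ± 0.57 and 1.49 ± 0.35 (SE). Of 27 genes of epithelial-mesenchymal transition, 4 rose and 4 fell. Zeb1, a repressor of E-cadherin, was 2.04 and 1.92 FPKM against 6.39, 7.3 and 6.68 FPKM and Cdh1, or E-cadherin, 137 and 103 FPKM against 207, 231 and 252 FPKM. Both fell, by 1.38 ± 0.39 and 0.94 ± 0.28 (SE), and the matrix protease Mmp9, the protease Plau, Tgfb1 and Tgfbi rose. The 4 higher became 1 to 2 without Lgr5-Cdx2-Apc replicate 1 or 2 or control replicate 2 or 3 and 7 without Lgr5-Apc replicate 4, and the 4 lower became 0 to 2 without Lgr5-Cdx2-Apc replicate 1 or 2 or Cdx2-Apc replicate 2 or 3 or control replicate 1 or 2 or 3.

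Some cell cycle genes and most tested genes of respiration fell. Of 32 cell cycle genes, 9 fell and 1 rose. Ccnb2, a mitotic cyclin, was 4.7 and 7.14 FPKM against 16.1, 15.7 and 19.5 FPKM and fell by 1.40 ± 0.25 (SE; adjusted p = 0.008). Birc5, or survivin, was 6.03 and 8.22 FPKM against 17.8, 12.9 and 17.2 FPKM, and the kinase gene Cdk1 was 5.84 and 8.11 FPKM against 13.3, 12 and 15.4 FPKM. The level of the whole cell cycle list was 2.81 and 3.25 against 3.42, 3.19 and 3.39 in control and overlapped. The groups did not overlap for the 3 genes, and the differences were small beside those of the tissue lists. Among cell cycle genes, the count of 9 was 0 to 5 without Lgr5-Cdx2-Apc replicate 1 or 2 or control replicate 1 or 2 or 3. Of 30 nuclear genes of oxidative phosphorylation, 21 fell and 0 rose, with a median log2 difference of -0.88. Sdhd, a subunit of complex II, was 51.7 and 45.4 FPKM against 112, 154 and 195 FPKM, and Cox5a, of complex IV, 156 and 142 FPKM against 309, 317 and 522 FPKM. They fell by 1.61 ± 0.34 and 1.32 ± 0.34 (SE). Among oxidative phosphorylation genes, the count of 21 was 0 to 11 without Lgr5-Cdx2-Apc replicate 1 or 2 or control replicate 2 or 3 or Cdx2-Apc replicate 3 and 11 in a fit on the 5 compared libraries. Of 23 genes of glycolysis and hypoxia, 5 fell and 0 rose, and the count of 5 was 0 to 3 without Lgr5-Cdx2-Apc replicate 1 or 2 or control replicate 1 or 2 or 3 or Cdx2-Apc replicate 1 or 2 or 3 and 3 in a fit on the 5 compared libraries.

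Redox and drug metabolism genes changed in both directions. Gpx2, the glutathione peroxidase of gut epithelium, was 18.6 and 10.1 FPKM against 124, 159 and 202 FPKM and 99.3 to 211 FPKM in the 7 single-driver libraries. It fell by 3.44 ± 0.32 (SE; adjusted p = 0.00039), and with the transferase Gstm1, at 39.3 and 44.1 FPKM against 114, 146 and 134 FPKM, it had a stable call. The cytochrome Cyp1b1 was 8.72 and 9.79 FPKM against 0.36, 0 and 0.137 FPKM and rose with a stable call, and Cyp26b1, which degrades retinoic acid, was 25.7 and 26.1 FPKM against 0.695, 0.62 and 0.7 FPKM and rose by 4.01 ± 0.80 (SE). In all, 5 of 27 such genes rose and 5 fell. The counts were 1 to 3 without Lgr5-Cdx2-Apc replicate 1 or 2 or control replicate 2 or 3 for the higher and 2 to 3 without Lgr5-Cdx2-Apc replicate 1 or 2 for the lower genes. Immediate early genes, which handling of tissue can induce, had few calls. Of 25 on the list, 4 rose, Hmox1, Egr2, Egr3 and Dusp1, and Fos was 21.8 and 14 FPKM against 114, 24.7 and 45.2 FPKM and did not pass. Among immediate early and stress genes, the count of 4 was 0 to 2 without Lgr5-Cdx2-Apc replicate 1 or 2 or control replicate 2 or 3 or Cdx2-Apc replicate 1 or 2 or 3 and 7 without Lgr5-Apc replicate 2 or 4.

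Genes of connective tissue and vessels had few calls. Of 19 fibroblast genes, 2 rose, Crabp1, a marker of the dermal papilla, from 0.308, 0.699 and 0.112 FPKM to 16.9 and 25.2 FPKM with a stable call, and the skin patterning factor Tbx15. Col1a1, the main fibrillar collagen chain, was 170.1 and 199.8 FPKM against 24.3, 65.1 and 75 FPKM and did not pass. Of 22 collagen genes, 5 rose and 1 fell. Col7a1, which anchors epidermis to dermis, rose by 4.32 ± 1.02, Col4a3 and Col4a4 rose with stable calls, and Col4a1 fell by 1.66 ± 0.46 (SE). Among collagen genes, the count of 5 was 2 to 3 without Lgr5-Cdx2-Apc replicate 1 or 2 or control replicate 2 or 3 and 8 without Lgr5-Apc replicate 4. None of 16 blood endothelium genes and none of 7 lymphatic endothelium genes was called by limma. At an unadjusted p under 0.05 there were 1 of the former and 5 of the latter, and the median log2 differences were -0.14 and -1.35. Of 14 adipocyte genes, Pck1, which colonocytes also express, fell, and the defining genes did not pass. The mitochondrially encoded genes were not analysed here.

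The 2 Lgr5-Cdx2-Apc libraries were also set against each group with a single driver, so all 3 comparisons share them. Against Lgr5-Apc, 906 genes were higher and 654 lower, 5.22% and 3.77% of the 17360 tested (8.99% in all), and against Cdx2-Apc 2103 were higher and 2029 lower, 12.1% and 11.7% (23.8% in all). Cdx2-Apc differed from the other groups in sex-linked genes, as given above. Of the genes tested, 13.7% were higher in both Lgr5-Cdx2-Apc libraries than in all other 10 and 10.5% were lower. Actg2 was 145 to 1029.5 FPKM in the 7 single-driver libraries, against 8.33 and 3.59 FPKM with both drivers, and its log2 difference was -5.67 from Lgr5-Apc and -6.40 from Cdx2-Apc (adjusted p = 0.0012 and 0.00073). Smooth muscle genes were lower than in Lgr5-Apc for 13 of 24 and than in Cdx2-Apc for 19. Skin T cell and Skint genes were higher than in Lgr5-Apc for 14 of 16 and than in Cdx2-Apc for all 16. Krt71 was 0 to 0.823 FPKM in the 7 libraries, and the inner root sheath list was higher for 9 and 10 of 13 genes. Of 18 late cornified envelope genes, limma called 0 against Lgr5-Apc, with 6 at an unadjusted p under 0.05, while 12 were higher than in Cdx2-Apc, and of 25 sarcomere genes 4 and 21 were higher. Lgr5-Apc replicates 2 and 3 had late cornified envelope levels of 7.32 and 6.09, beside 5.47 and 6.29 with both drivers. Lgr5-Apc replicate 2 held both tissues, with Lce1l at 173 FPKM and Acta1 at 205 FPKM. Skint5 was 11.2 FPKM there and at most 1.42 FPKM in the other 6 single-driver libraries. Columnar genes were lower for 9 and 15 of 18, and Hoxd13 differed from neither group past the threshold (adjusted p = 0.19 and 0.051).

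**Figure D5:**
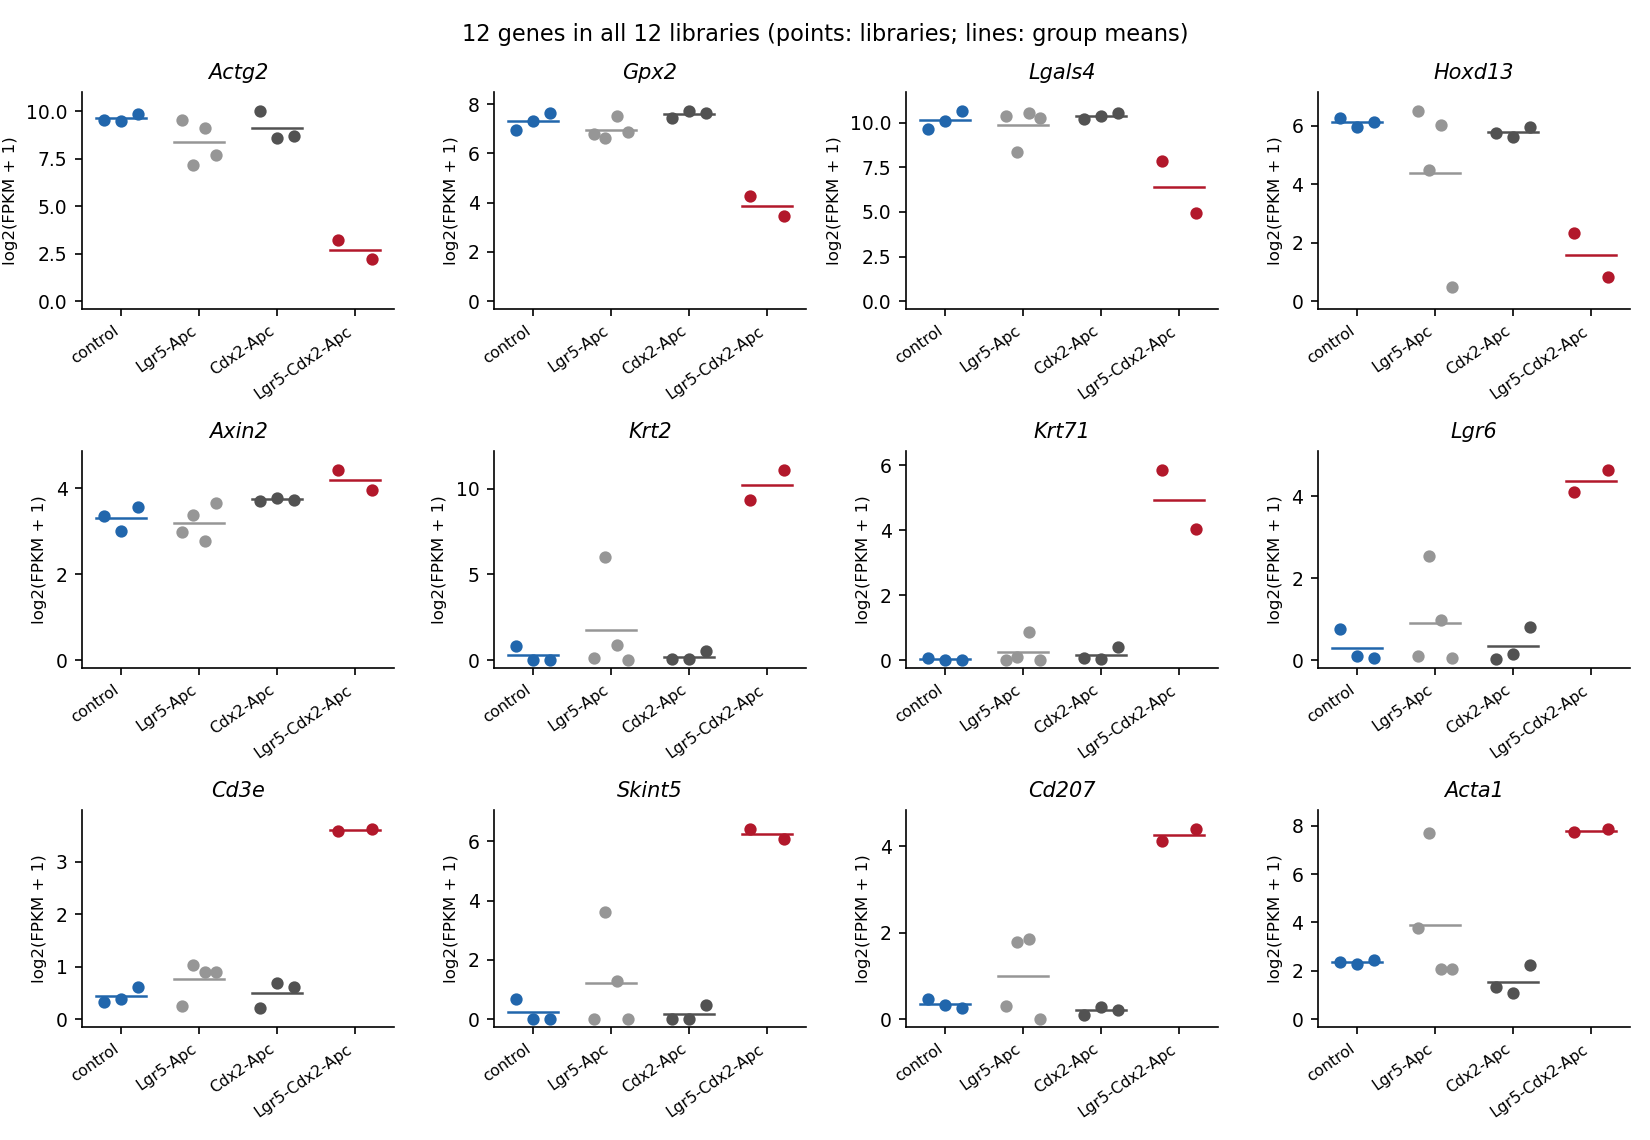
Levels of 12 genes as log2(FPKM + 1) are shown in all 12 libraries, with 1 point per library and a line at each group mean. Actg2, Gpx2 and Lgals4 are lowest, and Krt71, Lgr6, Cd3e and Cd207 highest, in the 2 Lgr5-Cdx2-Apc libraries, while Acta1 is as high in Lgr5-Apc replicate 2, Hoxd13 lower still in Lgr5-Apc replicate 4, and Axin2 differs less between groups.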

How the data were processed

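RNA from mouse rectum was purified with the RNeasy plus kit and made into libraries with NEBNext Ultra II directional, per the labels' protocols. The submitters' processing notes name STAR, Cufflinks, Cuffdiff and mm10, with no versions. FPKM values were deposited by the authors as 1 table of 12 libraries, and the unit stands in no header. Date-like names and repeated symbols were handled so that 27785 genes remained. The 17360 genes that reached 1 FPKM in 2 or more of the 12 libraries were tested on log2(FPKM + 1) with limma 3.58.1 in R 4.3.3, with a term per group over all 12 libraries, trend in the variance and Benjamini-Hochberg adjustment at 0.05. A log2(FPKM + 1) difference understates the change of low genes. Depth in reads is unknown, so no counting interval was given. The fit was also run on simulated normal values with added changes, and the outcome is not given here. Symbols were matched to GENCODE on GRCm38 (95.9% matched).

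The members and gene lists were chosen with earlier results of these data known. Genes were named by a rule: the 25 largest changes in each direction, 15 more on no list, the 4 smallest p of each list, 10 in each direction outside all other libraries, 8 that differed between the replicates, and the defining markers. Other named genes were chosen after their values were seen. Alternatives covered the pseudocount, the filter, scaling, quality weights, a minimum difference, the replicate block and each library left out. Python 3.11.15, pandas 2.3.3 and matplotlib 3.10.9 were used.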

Additional observations from a re-analysis of the deposited data

Results flagged for a closer look

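The response differed between the genotypes with Apc. Between Lgr5-Cdx2-Apc and Lgr5-Apc, 1554 of the 16317 genes passed the limma test of the difference, and between Lgr5-Cdx2-Apc and Cdx2-Apc 4087 did (Benjamini-Hochberg adjusted p below 0.05). The contrasts share the control libraries, so a difference between their effects is the difference between the groups themselves. Libraries of 1 group differed in tissue markers, with late cornified envelope levels of 1.51, 7.32, 6.09 and 0.05 in Lgr5-Apc replicates 1, 2, 3 and 4. Tissue make-up and genotype cannot be told apart in these counts. Cdx2-Apc also differed from the other groups in sex-linked genes, and in that comparison genotype and sex cannot be told apart.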

How the results depend on the processing

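Of the genes compared, 1826 were called higher and 1479 lower than control, 1554 differed from Lgr5-Apc and 4087 from Cdx2-Apc. With library quality weights these counts were 3335, 2911, 3797 and 6787, and against a minimum log2 difference of 1 they were 68, 18, 53 and 89. A filter on a mean of at least 5 FPKM, which tests fewer genes, gave 782 higher than control, 492 against Lgr5-Apc and 2702 against Cdx2-Apc. A fit on the compared groups only gave 161 against Lgr5-Apc, and the cause was not tested. With each library left out in turn, the counts ran from 319 to 2599 higher, 104 to 2046 lower, 282 to 4419 against Lgr5-Apc and 497 to 5253 against Cdx2-Apc. No call against control changed sign under an alternative, and signs were not followed for the other 2 comparisons.

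The replicate block gave 1456 higher, 1537 lower, 578 against Lgr5-Apc and 3986 against Cdx2-Apc. Whether the replicate numbers pair the libraries could not be decided. Same-numbered control and Lgr5-Cdx2-Apc libraries had deviations that correlated at -0.14 and 0.04. Each control library correlated with both Lgr5-Cdx2-Apc libraries at the same size and opposite sign, so these values cannot exclude pairing. Over all groups, 5 of 15 same-numbered pairs were above 0.1.

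Of 38 list counts of 4 or more, 36 moved by over 1.5 times without Lgr5-Cdx2-Apc replicate 2, 25 without replicate 1, 29 without control replicate 2 and 29 without control replicate 3. With 2 libraries in the group, these calls rest on few samples. No counts of reads were used, so depth limits genes near 0 to an unknown extent.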
